A study of Mus musculus with 24 samples.

Results

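Cd163, Lyve1, Mrc1, Folr2 and Stab1 are 5 genes for surface receptors of tissue-resident macrophages, and they were followed across 24 RNA-seq libraries of mouse malignant pleural effusion. They were taken by gene name from a table of 54505 genes, and all 5 were found there. They were chosen with their levels in pleural fluid already known, so every fluid value of these genes is given as a description with no test. In tumors, Cd163 and Lyve1 were lower in each of the 6 libraries with LNP-CDN than in each of the 6 without it. Of all genes tested in tumors, 2.77% were lower without overlap in this way. None of the 5 genes passed the test in any of the 6 pairwise comparisons of treatments. The pooled comparison that Cd163 and Lyve1 did pass was chosen after this separation was seen in the same libraries.

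The cavity around the lungs of C57BL/6 mice held a tumor of Lewis lung carcinoma, a transplantable mouse cancer line, in every group. On day 11 the mice received into that cavity LNP-CDN (a liposomal nanoparticle with 1 µg of cGAMP, an agonist of the STING pathway), LNP-CDN plus the antibody anti-PD-L1 (the combination), anti-PD-L1 alone (clone 10F.9G2, 30 µg), or PBS. On day 13 cells were taken from the pleural fluid and from pleural tumors digested with an enzyme mix that included hyaluronidase, with red cells lysed in both, so that 3 libraries stand in each of 8 groups. The labels give 3 individual mice for each treatment and do not tie a fluid library to a tumor library.

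These receptors take up material from the surroundings of the cell. Cd163 binds haemoglobin bound to haptoglobin, and Lyve1 binds the matrix sugar hyaluronan. Mrc1, the mannose receptor CD206, takes up glycoproteins and collagen fragments. Folr2 is folate receptor beta, and Stab1, stabilin-1, is a scavenger receptor that clears SPARC and modified lipoproteins. Lyve1 is also a marker of lymphatic endothelium, and Stab1 is also made by sinusoidal endothelium. In the files, which follow GRCm38 coordinates, Cd163 (ENSMUSG00000008845) lies on chromosome 6 from 124304656 to 124330527 on the plus strand, and Lyve1 (ENSMUSG00000030787) on chromosome 7 from 110850607 to 110863239 on the minus strand. Mrc1 (ENSMUSG00000026712) lies on chromosome 2 from 14229392 to 14332057 on the plus strand. Folr2 (ENSMUSG00000032725) lies on chromosome 7 from 101839988 to 101857194, and Stab1 (ENSMUSG00000042286) on chromosome 14 from 31139013 to 31168641, both on the minus strand.

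The promoters are shown as a description, and a link between their letters and the levels of these genes was not tested. RefSeq (GRCm38.p6) held a promoter for 4 of the 5 genes, and Lyve1 was the gene without one. The 250 bases before the start are given 5′ to 3′ on the strand of the gene, for Cd163 at chr6:124304401-124304650 (+), Mrc1 at chr2:14229164-14229413 (+), Folr2 at chr7:101857191-101857440 (-) and Stab1 at chr14:31168642-31168891 (-). Another RefSeq start of Folr2 is not printed. Capitals mark the ETS core GAGGAA and the MAF half-site TGCTGA, or their reverse complements.
Cd163: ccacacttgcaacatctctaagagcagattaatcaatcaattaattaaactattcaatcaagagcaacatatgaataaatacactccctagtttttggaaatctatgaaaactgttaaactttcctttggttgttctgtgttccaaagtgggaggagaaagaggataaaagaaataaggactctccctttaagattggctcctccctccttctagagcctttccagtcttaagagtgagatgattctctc
Mrc1: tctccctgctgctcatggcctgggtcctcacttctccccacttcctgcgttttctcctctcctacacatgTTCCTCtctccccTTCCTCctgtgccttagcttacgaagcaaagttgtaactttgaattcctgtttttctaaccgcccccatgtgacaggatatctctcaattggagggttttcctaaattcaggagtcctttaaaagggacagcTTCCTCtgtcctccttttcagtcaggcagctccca
Folr2: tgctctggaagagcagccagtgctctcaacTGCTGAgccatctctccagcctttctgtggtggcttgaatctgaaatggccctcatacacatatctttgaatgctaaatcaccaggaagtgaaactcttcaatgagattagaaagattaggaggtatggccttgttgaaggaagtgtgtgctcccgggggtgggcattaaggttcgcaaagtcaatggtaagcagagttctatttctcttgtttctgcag
Stab1: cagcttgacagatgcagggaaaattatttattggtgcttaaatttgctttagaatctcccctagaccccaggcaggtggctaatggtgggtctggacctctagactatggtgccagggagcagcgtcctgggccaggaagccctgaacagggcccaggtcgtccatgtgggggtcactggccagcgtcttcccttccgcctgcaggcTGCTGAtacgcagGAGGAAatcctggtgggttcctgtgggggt
The ETS core, a motif of the macrophage factor PU.1, had 3 matches in Mrc1, 1 in Stab1 and 0 in Cd163 and Folr2, and it is in 23.3% of 32807 promoters of this length. The MAF half-site had 1 match in Folr2, 1 in Stab1 and 0 in Cd163 and Mrc1, with 16.1% of promoters holding it. The interferon-response motif ISRE, searched in its core form and found in 2.97% of promoters, and the STAT motif TTCNNNGAA, in 7.02%, had 0 matches in the 4 promoters printed, and so did the AP-1 motif TGANTCA, in 6.75%. Both strands were searched, and a match describes letters in this window and not binding. The window before the other Folr2 start held 1 match of the AP-1 motif, which the printed window lacks, and 1 of the MAF half-site.

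Between 14580178 and 26850861 reads per library were recovered from the FPKM values (fragments per kilobase of gene, scaled to library depth). The macrophage genes Adgre1 and Csf1r were present in every group, and the summed FPKM of 18 pan-macrophage genes was 10235 to 12518 in LNP-CDN fluid, 9734 to 10107 in combination fluid, 7611 to 17286 in anti-PD-L1 fluid and 8756 to 8878 in PBS fluid. In tumors the same sum lay between 1291 and 1520 in all 12 libraries. Prox1, the defining factor of lymphatic endothelium, was at most 0.109 FPKM in any fluid library, and Stab2, the stabilin of sinusoidal endothelium, at most 0.0921 FPKM. Y-linked Ddx3y was 21.6 to 23.6 FPKM in the 3 anti-PD-L1 fluid libraries and at most 0.0283 in the other 9, which include the combination. In fluid, the sex of the mice, as far as this gene shows it, and anti-PD-L1 given alone cannot be told apart. In tumors Ddx3y was 3.27 to 3.44 FPKM with anti-PD-L1, 3.55 in PBS replicate 1 and at most 0.0205 in the other 8 libraries, so that 1 of 3 PBS tumor libraries and 0 of 3 PBS fluid libraries held such reads.

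In pleural fluid, Cd163 and Lyve1 were far lower after LNP-CDN and after the combination than after PBS. Cd163 was 36.1, 34.5 and 28.3 FPKM with LNP-CDN and 36.5, 40.9 and 38.1 FPKM with the combination. With anti-PD-L1 it was 304, 270 and 311 FPKM, and with PBS 335, 368 and 298 FPKM. All 6 libraries with LNP-CDN lay far below the 6 without it, and the anti-PD-L1 and PBS values overlapped. The mean was 10.1-fold lower with LNP-CDN than with PBS and 8.67-fold lower with the combination. On the log2(FPKM + 1) scale these differences were -3.30 ± 0.11 and -3.08 ± 0.11 (SE).

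Lyve1 had the widest range of the 5 genes in fluid. It was 15.1, 3.43 and 11.7 FPKM with LNP-CDN and 8.51, 4.99 and 5.86 FPKM with the combination, against 249, 286 and 170 FPKM with PBS. The mean was 23.3-fold lower with LNP-CDN than with PBS (log2 difference -4.57 ± 0.42) and 36.4-fold lower with the combination (-4.98 ± 0.42). Within the LNP-CDN group replicate 2 stood low, with 136 reads for the gene, while the others had 699 and 555 reads. With anti-PD-L1, Lyve1 was 461, 451 and 296 FPKM, all above the 3 PBS libraries, a log2 difference of 0.78 ± 0.42. The share of all genes that separate between these groups was not counted, so nothing is read from that. Relative to the macrophage gene Csf1r, the anti-PD-L1 and PBS values of Lyve1 overlapped. Lyve1 ranked 95 by mean FPKM among all genes of the table in anti-PD-L1 fluid and 209 in PBS fluid, and 5122 in LNP-CDN fluid and 6650 in combination fluid.

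Mrc1 was the most abundant of the 5 genes in every fluid group but the anti-PD-L1 one, where Lyve1 had the higher mean. It was 241, 224 and 259 FPKM with LNP-CDN and 237, 260 and 192 FPKM with the combination, against 480, 540 and 421 FPKM with PBS. The groups did not overlap, and the mean was 1.99-fold lower with LNP-CDN and 2.09-fold lower with the combination. With anti-PD-L1 it was 376, 388 and 341 FPKM, between the other groups and also without overlap with PBS (log2 difference -0.38 ± 0.13). As for Lyve1, nothing is read from this separation, since the share over all genes was not counted.

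Folr2 overlapped between each treated fluid group and PBS. It was 54.9, 47.3 and 67.9 FPKM with LNP-CDN, 54.4, 48.8 and 48.3 FPKM with the combination and 52.9, 49.9 and 39.8 FPKM with PBS. The log2 differences were 0.24 ± 0.24 and 0.09 ± 0.24, with the second below 0 without PBS replicate 3 (-0.03). Relative to Csf1r both were below 0, at -0.05 and -0.23. With anti-PD-L1, Folr2 was 105, 80.1 and 47.1 FPKM, and replicate 1, the highest, was also highest in Csf1r at 284 FPKM against 146 and 121 FPKM in the other anti-PD-L1 libraries.

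Stab1 was 131, 108 and 154 FPKM with LNP-CDN and 161, 183 and 126 FPKM with PBS, which overlapped. With the combination it was 115, 122 and 85.3 FPKM, all below PBS, a log2 difference of -0.55 ± 0.26. With anti-PD-L1 it was 240, 139 and 115 FPKM, which spanned the PBS values. Thus 3 of the 5 genes lay below PBS without overlap after LNP-CDN and 4 of 5 after the combination. Over all 13518 genes tested in fluid, 21.8% and 26.7% did so in these comparisons. Nothing is read from these counts, since fluid values chose the genes.

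**Figure D1:**
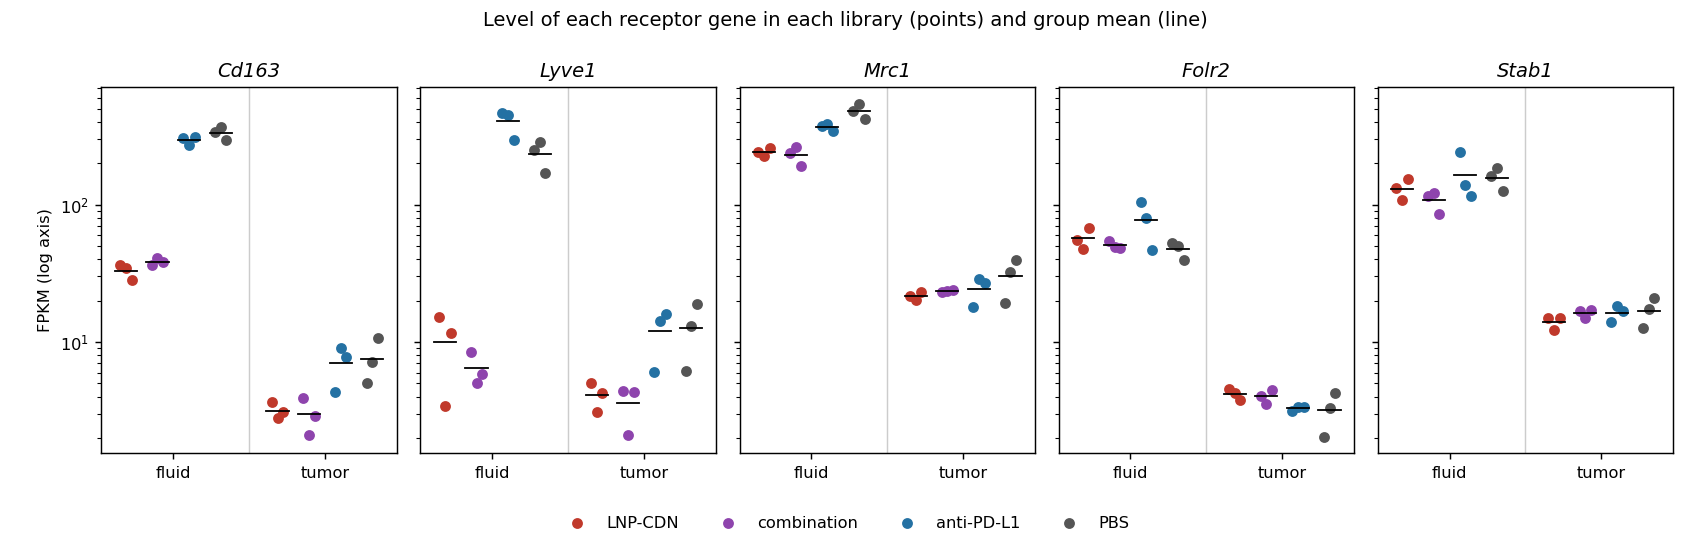
FPKM of the 5 receptor genes on a log axis, 1 point per library and a line at the group mean, for fluid (left of each panel) and tumor (right). In fluid the LNP-CDN and combination points of Cd163 (28.3 to 40.9 FPKM) lie below the anti-PD-L1 and PBS points (270 to 368 FPKM), while those of Folr2 overlap.

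In bulk RNA, fewer cells of a type and less RNA per cell cannot be told apart. Each gene was also set against Csf1r, the receptor for the macrophage growth factor, in the same library, which does not tell them apart either. Csf1r averaged 169 ± 16.0 FPKM in LNP-CDN fluid and 137 ± 12.1 FPKM in PBS fluid (SD, n = 3 each), a log2 difference of 0.30 ± 0.24 that missed the threshold (limma, adjusted p = 0.399). Cd163 stood at 15.2 to 22.2% of Csf1r with LNP-CDN, 21.4 to 23.3% with the combination, 107 to 258% with anti-PD-L1 and 238 to 247% with PBS. Lyve1 stood at 2.21 to 9.17%, 2.80 to 5.00%, 163 to 310% and 136 to 192% in the same order of groups. Mrc1 was 139 to 146% of Csf1r with LNP-CDN, 117 to 146% with the combination and 338 to 362% with PBS. Folr2 kept to 30.4 to 36.4% with LNP-CDN, 27.4 to 32.0% with the combination and 31.9 to 38.7% with PBS. Stab1 did not keep to its PBS level in this way. It averaged 131 FPKM with LNP-CDN and 157 FPKM with PBS, while Csf1r had the higher mean with LNP-CDN. Set against the Csf1r means, Stab1 was thus lower with LNP-CDN than with PBS, although its FPKM values overlapped. The low Cd163 and Lyve1 values stood beside a Csf1r level and a summed pan-macrophage level that were no lower than in PBS fluid. These levels do not separate resident macrophages from monocytes, whose gene Ly6c2 averaged 244 FPKM with LNP-CDN and 26.4 FPKM with PBS. Which cells carried them was not tested.

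**Figure D2:**
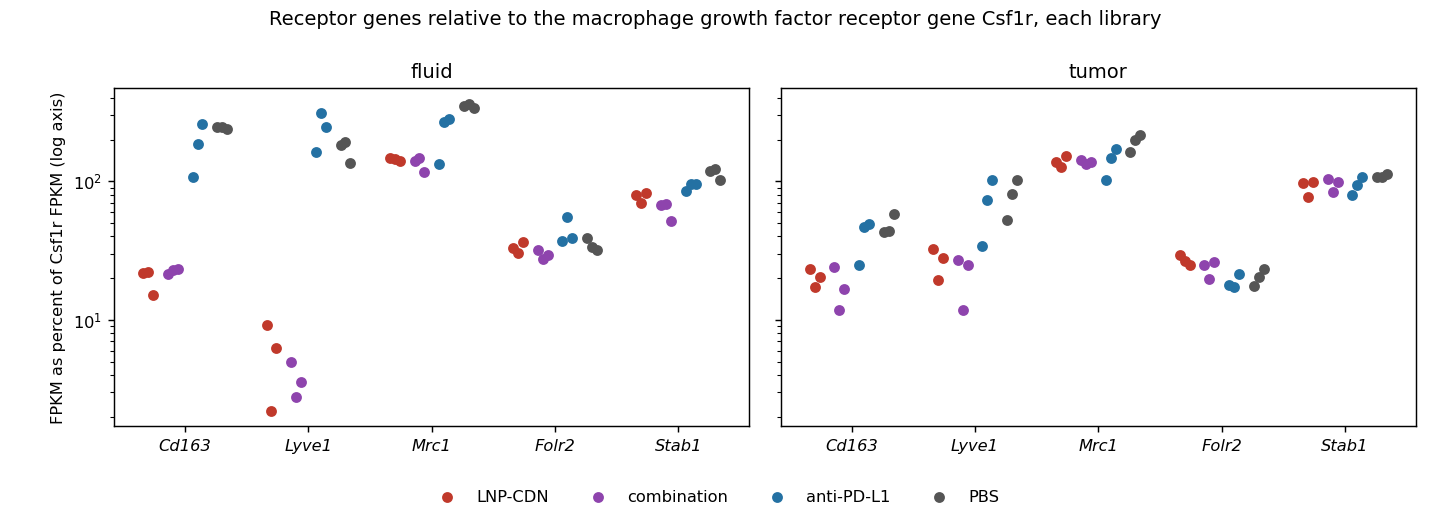
FPKM of each receptor gene as a percent of the FPKM of Csf1r in the same library, on a log axis, 1 point per library, for fluid and tumor. In fluid, Cd163 lies at 15.2 to 23.3% with LNP-CDN or the combination and at 107 to 258% without LNP-CDN, while Folr2 lies between 27.4 and 55.0% in all 4 groups.

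Other cell types also differed between these fluid groups. All 7 B cell markers and all 7 dendritic cell markers tested fell after LNP-CDN and after the combination, against PBS (limma, adjusted p under 0.05). The summed FPKM of the 7 B cell markers was 3.92 to 7.63 with LNP-CDN, 5.62 to 32.8 with the combination and 45.7 to 94.2 with PBS. Neutrophil markers summed to 893 to 3019 with LNP-CDN, 879 to 1978 with the combination and 3411 to 5310 with PBS. Of those tested 2 fell after LNP-CDN, Retnlg and S100a9, and 1 of these calls held without any 1 library. After the combination 4 fell, and 2 of these calls held. Mmp8 went the other way after the combination, at 155.5 FPKM against 76.2 FPKM with PBS, and was not called. Of T cell markers 0 rose and 2 of 10 fell after LNP-CDN, and 0 were called after the combination. Of the fibroblast markers tested 5 of 7 fell after the combination, 2 of them (Col3a1 and Pdgfra) also without any 1 library, and 0 were called after LNP-CDN. Another listed marker, Pdgfrb, was left out of tests because its values were not whole reads, so these counts do not cover it. Of mesothelial markers 0 were called in either comparison. Of the endothelial markers tested, Kdr rose in both comparisons. The part of these cells in the receptor values was not tested. The interferon-stimulated genes rose, 10 of 10 in both comparisons.

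In fluid after LNP-CDN, 13.7% of all genes tested were higher and 12.3% lower than after PBS, and after the combination 15.6% were higher and 14.4% lower (limma, adjusted p under 0.05). The lists that follow leave out the 5 receptor genes, and each count is read against these shares. Of 18 pan-macrophage genes, 5 rose and 2 fell after LNP-CDN, and likewise after the combination, and in each comparison 5 of the 7 calls held without any 1 library. The Fc receptor gene Fcgr1 averaged 419 ± 65.1 FPKM with LNP-CDN and 215 ± 21.99 FPKM with PBS (log2 difference 0.95 ± 0.18, adjusted p = 0.00342). Ms4a7 averaged 22.8 ± 3.63 FPKM with LNP-CDN and 5.45 ± 1.15 FPKM with PBS, and the lysosomal Cd68 792 ± 77.5 and 449 ± 16.1 FPKM. Cd14, a co-receptor for bacterial lipopolysaccharide, fell by 1.09 on the log2 scale. The median log2 difference of the list was 0.42, against 0.00 for all genes.

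Among 15 tested genes often found beside Lyve1 in tissue macrophages, 2 rose and 3 fell after LNP-CDN, and all 5 calls held without any 1 library. F13a1, the A chain of clotting factor XIII, averaged 145 ± 18.4 FPKM with LNP-CDN and 374 ± 38.1 FPKM with PBS (-1.37 ± 0.14, adjusted p = 0.000174). Ltc4s, leukotriene C4 synthase, averaged 12.9 ± 6.05 FPKM with LNP-CDN and 48.6 ± 5.06 FPKM with PBS. In the opposite direction, the transcription factor Maf averaged 111 ± 8.06 and 63.6 ± 6.07 FPKM, and Gas6, a ligand of the receptor Mertk, 41.0 ± 4.31 and 19.7 ± 1.73 FPKM. Timd4, a receptor for phosphatidylserine, averaged 13.6 ± 11.0 FPKM with LNP-CDN and 6.54 ± 0.771 FPKM with PBS and missed the threshold (adjusted p = 0.381). After the combination 1 gene rose, Maf, and 4 fell, led by F13a1 and the carbonyl reductase Cbr2 at 57.0 ± 13.4 FPKM against 262 ± 6.58 FPKM with PBS.

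Of 16 tested genes of serous cavity macrophages, 0 rose and 2 fell after LNP-CDN, the coagulation factor F5 (-2.87 ± 0.74) and the lubricin gene Prg4 (-1.95 ± 0.63). Both calls were lost when 1 library was left out, with adjusted p up to 0.0616 and 0.133. Gata6, the factor that marks large serous cavity macrophages, averaged 4.44 ± 1.29 FPKM with LNP-CDN and 5.17 ± 1.35 FPKM with PBS. After the combination F5 alone was called, and it held without any 1 library. Of 12 monocyte genes, 5 rose and 2 fell after LNP-CDN. Ly6i averaged 46.5 ± 22.9 FPKM with LNP-CDN and 3.00 ± 0.668 FPKM with PBS, and Ly6c2 244 ± 113 and 26.4 ± 1.31 FPKM. The chemokine receptor of classical monocytes, Ccr2, averaged 115 ± 21.9 FPKM with LNP-CDN and 116 ± 2.81 FPKM with PBS (adjusted p = 0.871). After the combination 6 monocyte genes rose and 3 fell.

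The genes around each receptor did not share 1 direction. Of 9 tested genes of the hyaluronan system, the ligand side of Lyve1, 2 rose and 4 fell after LNP-CDN, and the same counts held after the combination. The lysosomal hyaluronidase Hyal1 averaged 4.97 ± 0.485 FPKM with LNP-CDN and 1.84 ± 0.161 FPKM with PBS (1.07 ± 0.14, adjusted p = 0.000462). The matrix proteoglycan Vcan averaged 46.6 ± 3.74 FPKM with LNP-CDN and 140 ± 11.2 FPKM with PBS. Cd44, the other main hyaluronan receptor of leukocytes, fell by 0.46 after LNP-CDN and by 0.75 after the combination on the log2 scale. After LNP-CDN 3 of the 6 calls held without any 1 library, and Cd44 was not among them (adjusted p up to 0.0626). After the combination all 6 held.

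Of 11 tested genes of haemoglobin and heme handling, the pathway below Cd163, 7 rose and 0 fell after LNP-CDN. The median log2 difference of the list was 0.63. The iron exporter Slc40a1 (ferroportin) averaged 22.2 ± 4.25 FPKM with LNP-CDN and 6.20 ± 0.862 FPKM with PBS (1.68 ± 0.35, adjusted p = 0.00632), and the heme oxygenase Hmox2 61.9 ± 8.48 and 39.2 ± 2.24 FPKM. These 2 were the calls that held without any 1 library. The inducible heme oxygenase Hmox1 averaged 1772 ± 87.8 FPKM with LNP-CDN and 1792 ± 386 FPKM with PBS (adjusted p = 0.991). After the combination 3 of 11 rose, Hmox2, Blvra and Slc11a1, and 0 fell. Haptoglobin (Hp), the plasma partner of the Cd163 ligand, averaged 215 ± 140 FPKM with LNP-CDN, 241 ± 40.0 FPKM with the combination and 244 ± 46.0 FPKM with PBS.

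Among 18 tested genes listed around the induction and shedding of Cd163, 7 rose and 1 fell after LNP-CDN. Not every gene of this list induces Cd163 or releases it from the cell. Receptors for inducing signals were among those that rose. The interleukin-10 receptor subunit Il10rb averaged 42.2 ± 3.65 FPKM with LNP-CDN and 23.6 ± 1.07 FPKM with PBS (adjusted p = 0.00181). The glucocorticoid receptor Nr3c1 averaged 31.5 ± 1.27 and 24.5 ± 0.824 FPKM (adjusted p = 0.00209, and 0.0705 with every library set to the same FPKM total). Adam17, the protease that sheds Cd163, averaged 34.9 ± 3.04 FPKM with LNP-CDN and 26.9 ± 0.857 FPKM with PBS (adjusted p = 0.0300, and up to 0.0983 without 1 library). After the combination Maf, Nr3c1 and Il10rb rose and 0 fell.

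Of 12 tested genes of folate uptake and use, 1 rose and 1 fell after LNP-CDN. The polyglutamate synthase Fpgs, which retains folate in the cell, averaged 2.89 ± 0.402 FPKM with LNP-CDN and 5.25 ± 0.682 FPKM with PBS (-0.69 ± 0.12, adjusted p = 0.00282). Folr1, the alpha receptor, averaged 0.244 ± 0.123 FPKM with LNP-CDN and 0.203 ± 0.0340 FPKM with PBS and was not tested, as it was under the filter. After the combination 1 rose and 2 fell. Of 11 tested genes of the mannose receptor family and other macrophage lectins, 3 rose and 3 fell after LNP-CDN. The galactose-type lectins Mgl2 (-1.93 ± 0.32) and Clec10a (-0.91 ± 0.20) fell and galectin-3 (Lgals3, 0.66 ± 0.16) rose, while Mrc2, the closest paralog of Mrc1, averaged 1.06 ± 0.235 FPKM with LNP-CDN and 1.04 ± 0.260 FPKM with PBS. After the combination 2 rose and 3 fell. Of 8 stabilin ligands and partners, 2 rose and 1 fell after LNP-CDN, the sorting nexin Snx17 (-0.29 ± 0.06), and after the combination 1 rose and 1 fell.

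**Figure D3:**
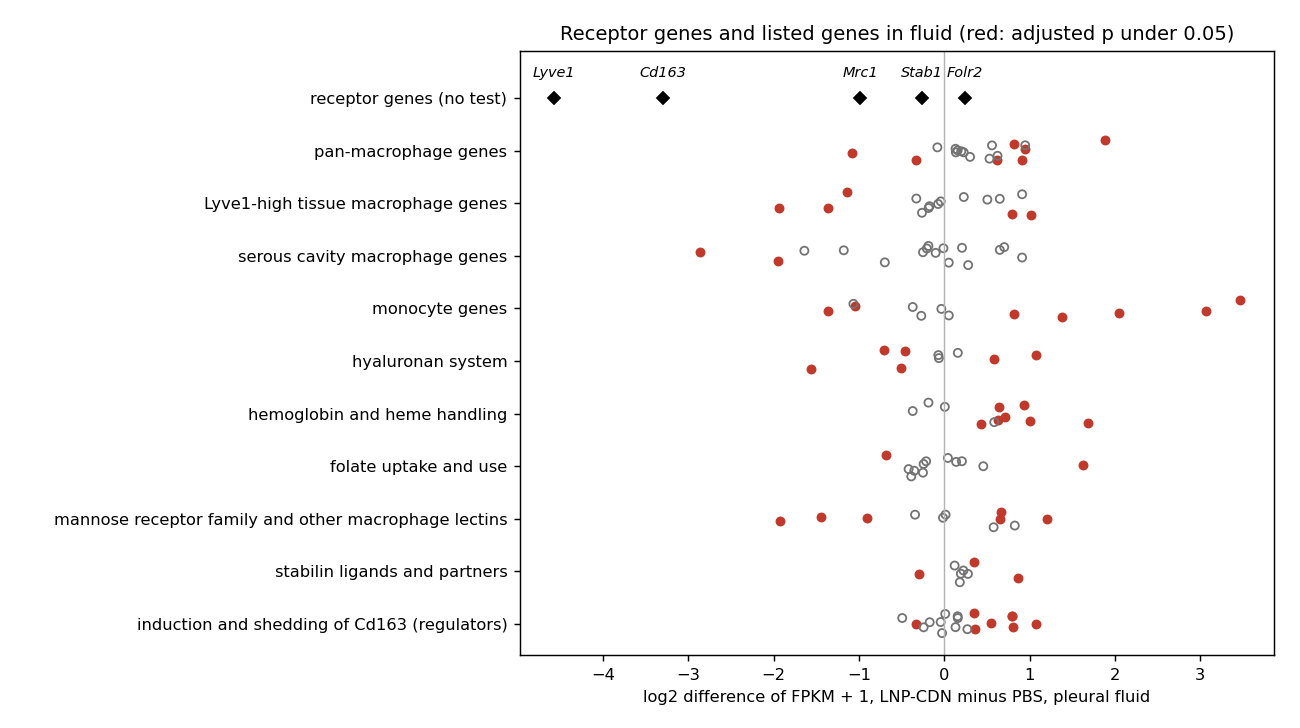
Log2 differences of FPKM + 1, LNP-CDN minus PBS in fluid, for the 5 receptor genes (diamonds, no test) and the tested genes of 10 lists (circles, red where adjusted p was under 0.05). Lyve1 (-4.57) and Cd163 (-3.30) lie further left than every listed gene, and the heme handling genes lie mostly to the right of 0. The receptor genes were chosen with these fluid values known, so nothing is read from their place.

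Anti-PD-L1 in fluid, with 5.47% of genes higher and 7.49% lower than PBS, gave these counts. Of the 18 pan-macrophage genes 0 rose and 2 fell, of the Lyve1-associated genes 1 rose and 3 fell, and of the serous cavity genes 0 rose and 0 fell. Of the lectins 0 rose and 4 fell, and of the 8 neutrophil markers tested 0 rose and 8 fell. All 7 B cell markers, 5 of 7 dendritic cell markers and 4 of 10 T cell markers fell too. Without any 1 library the calls that held were 5 of 8 for neutrophils, 4 of 7 for B cells, 5 of 5 for dendritic cells, 0 of 4 for T cells and 4 of 4 for the lectins. Of the genes around the receptors, 1 hyaluronan gene rose and 1 fell, 1 heme handling gene fell, 1 folate gene rose, 1 stabilin partner fell and 3 of 18 regulators of Cd163 fell. Neither hyaluronan call held without any 1 library, nor did the heme handling call. The Y-linked reads noted above separate the same groups.

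The genes closest to each receptor gene were found by the root mean square difference between log2(FPKM + 1) profiles, each centred on its own mean, over the 12 fluid libraries and 10802 genes. As the libraries share 4 treatments, this likeness is a description. Among the closest to Cd163 in fluid were Adm, the vasodilator peptide adrenomedullin (0.458), fibronectin Fn1 (0.664) and Ltc4s (0.701). Adm averaged 2.00 FPKM with LNP-CDN, 1.94 FPKM with the combination, 25.7 FPKM with anti-PD-L1 and 18.4 FPKM with PBS. Closest to Lyve1 was Alas2, the red cell enzyme of heme synthesis (0.966), at 0.643 FPKM with LNP-CDN, 0.243 FPKM with the combination, 27.3 FPKM with anti-PD-L1 and 36.7 FPKM with PBS. Adm, Ltc4s and Fn1 followed it, and Cd163 itself stood at 1.22 from Lyve1. Folr2 was closest to Pla2g16 (0.125), followed by the complement genes C1qb (0.128) and C1qa (0.129), which macrophages make. Stab1 was closest to the co-receptor Nrp1 (0.146), and Mrc1 to Rpn1 (0.167). The smaller values of these 3 genes go with their smaller spread across the libraries.

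All 5 genes were lower in tumors than in fluid under the same treatment, as far as their means go. With PBS, Cd163 was 44.0-fold lower in tumors, Lyve1 18.5-fold, Mrc1 15.9-fold, Folr2 14.8-fold and Stab1 9.28-fold, with no overlap for any gene. The share of all genes that separate in this way was not counted, so nothing is read from that. The pan-macrophage sum given above was also lower in every tumor library than in every fluid library. With LNP-CDN the ratio was 10.4-fold for Cd163 and 2.44-fold for Lyve1, whose tumor and fluid libraries then overlapped, while it was 11.2-fold for Mrc1, 13.5-fold for Folr2 and 9.30-fold for Stab1. In order of mean level, Cd163 ran from PBS and anti-PD-L1 fluid, which overlapped, through combination and LNP-CDN fluid to PBS and anti-PD-L1 tumors, which overlapped, and last the LNP-CDN and combination tumors, which overlapped. For Lyve1 the order set anti-PD-L1 fluid first and PBS fluid second. PBS and anti-PD-L1 tumors came next and stood above LNP-CDN and combination fluid in mean, and from there on each neighbour overlapped the next. Mrc1 and Stab1 ran from PBS or anti-PD-L1 fluid down to LNP-CDN tumors, and their 4 tumor groups overlapped from neighbour to neighbour. Folr2 had its 4 fluid groups overlapping from neighbour to neighbour, and its lowest mean in PBS tumors.

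Tumor values of the 5 genes were tested, although the genes were chosen with results of these data known, so the tests are not shown to be independent of that choice. With 3 libraries a group, none of the 5 genes passed the threshold in any of the 6 pairwise comparisons of treatments (limma, adjusted p under 0.05 over 13173 genes). The share of all genes called was 3.36% for LNP-CDN versus PBS, 1.18% for the combination versus PBS, 6.96% for LNP-CDN versus anti-PD-L1 and 1.55% for the combination versus anti-PD-L1. It was 0% for anti-PD-L1 versus PBS and 0% for the combination versus LNP-CDN, where 821 and 680 genes had an unadjusted p under 0.05 and limma-voom on recovered reads also called 0.

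Cd163 in tumors was 3.64, 2.79 and 3.09 FPKM with LNP-CDN and 3.91, 2.12 and 2.89 FPKM with the combination. It was 4.35, 9.04 and 7.75 FPKM with anti-PD-L1 and 4.99, 7.12 and 10.6 FPKM with PBS. Every library with LNP-CDN was lower than every library without it. The log2 difference was -0.99 ± 0.27 for LNP-CDN versus PBS (adjusted p = 0.0672) and -1.08 ± 0.27 for the combination versus PBS (adjusted p = 0.0874). With limma-voom on recovered reads these were -1.22 (adjusted p = 0.0395) and -1.31 (adjusted p = 0.0421), and both also passed without anti-PD-L1 replicate 1 (adjusted p = 0.0438 and 0.0408). With other libraries left out 1 at a time, adjusted p rose to as much as 0.183 after LNP-CDN and 0.283 after the combination (limma).

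Lyve1 in tumors was 5.05, 3.12 and 4.25 FPKM with LNP-CDN and 4.39, 2.09 and 4.30 FPKM with the combination, against 6.05, 14.2 and 16.1 FPKM with anti-PD-L1 and 6.14, 13.1 and 18.9 FPKM with PBS. The 6 libraries with LNP-CDN again lay below the 6 without it, though the gap between the nearest values was narrow. The log2 difference was -1.31 ± 0.40 for LNP-CDN versus PBS (adjusted p = 0.0966) and -1.50 ± 0.40 for the combination versus PBS (adjusted p = 0.115). Anti-PD-L1 versus PBS gave -0.04, with a 95% interval of -0.93 to 0.84, and changed sign without PBS replicate 3 (0.29). For Cd163 that comparison gave -0.09, with an interval of -0.68 to 0.50, and 0.16 without that library. The combination versus LNP-CDN gave -0.19 for Lyve1 (-1.07 to 0.69) and -0.09 for Cd163 (-0.68 to 0.50).

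After this separation was seen, the 6 tumor libraries with LNP-CDN, alone or combined, were compared with the 6 without it in the same fit, with the 2 groups on each side weighted equally. Cd163 fell by 0.99 ± 0.19 on the log2 scale (2.38-fold, adjusted p = 0.00897) and Lyve1 by 1.38 ± 0.28 (3.20-fold, adjusted p = 0.0126). Of all genes tested, 11.7% were called in this comparison, and 2.77% were lower without overlap. Of the 5 receptor genes 2 were lower without overlap, and the same 2 lay below PBS in LNP-CDN tumors and in combination tumors, where 11.9% and 9.91% of genes did. Both calls held without any 1 library, with adjusted p up to 0.0263 for Cd163 and 0.0315 for Lyve1. Ddx3y was at most 0.0082 FPKM in the 6 libraries with LNP-CDN and 3.27 FPKM or more in 4 of the 6 without it, and its part in this result was not tested. Without PBS replicate 1, the difference was -1.11 for Cd163 and -1.59 for Lyve1. Because the comparison was chosen from these same libraries, its p-values are too small and add no support to the separation that prompted it.

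The other 3 genes passed no such test. Mrc1 was 21.5, 20.2 and 23.1 FPKM with LNP-CDN and 23.0, 23.6 and 23.8 FPKM with the combination, against 17.9, 28.7 and 26.7 FPKM with anti-PD-L1 and 19.1, 32.4 and 39.4 FPKM with PBS. With versus without LNP-CDN its log2 difference was -0.22 (95% interval -0.57 to 0.13, adjusted p = 0.385). Stab1 was 15.0, 12.3 and 14.9 FPKM with LNP-CDN, 16.8, 14.9 and 16.97 FPKM with the combination, 14.0, 18.2 and 16.9 FPKM with anti-PD-L1 and 12.6, 17.3 and 20.9 FPKM with PBS. Its log2 difference was -0.12 (-0.36 to 0.12, adjusted p = 0.523). Folr2 was 4.57, 4.26 and 3.78 FPKM with LNP-CDN and 4.06, 3.55 and 4.50 FPKM with the combination, against 3.14, 3.37 and 3.37 FPKM with anti-PD-L1 and 2.05, 3.33 and 4.28 FPKM with PBS. Its log2 difference was 0.28 (0.03 to 0.53, adjusted p = 0.132), and it passed without PBS replicate 3 (0.37, adjusted p = 0.0301). These Folr2 values rest on as few as 76 reads, in PBS replicate 1.

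**Figure D4:**
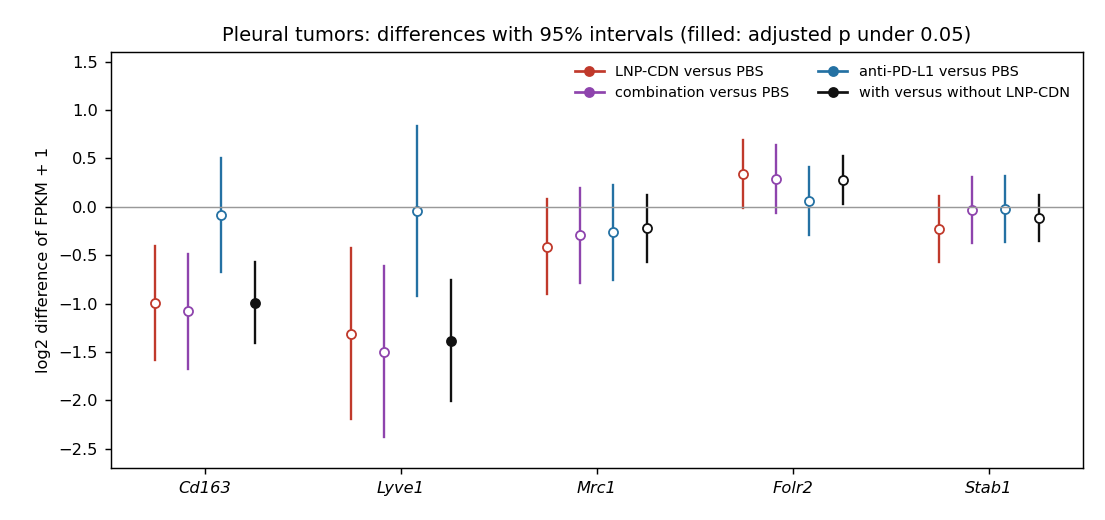
Log2 differences of FPKM + 1 in tumors with 95% intervals for the 5 receptor genes, in 4 comparisons; filled points had adjusted p under 0.05. Cd163 (-0.99) and Lyve1 (-1.38) are filled in the comparison with versus without LNP-CDN, and the intervals of anti-PD-L1 versus PBS include 0 for every gene.

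Csf1r did not move with Cd163 and Lyve1 in tumors. It averaged 16.4 ± 1.02 FPKM with LNP-CDN and 16.5 ± 2.73 FPKM without it (SD, n = 6 each, adjusted p = 0.987). Cd163 stood at 17.4 to 23.5% of Csf1r with LNP-CDN, 11.9 to 24.1% with the combination, 24.8 to 49.3% with anti-PD-L1 and 42.8 to 57.8% with PBS. Lyve1 stood at 19.4 to 32.5%, 11.7 to 27.0%, 34.4 to 102% and 52.6 to 103% in the same order of groups. Of the 18 pan-macrophage genes 6 rose with versus without LNP-CDN and 0 fell, among them Ms4a7 (0.51 ± 0.08), Fcgr1 (0.81 ± 0.14) and the factor Spi1 (0.30 ± 0.06). Spi1 lost its call when every library was set to the same FPKM total (adjusted p = 0.227).

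Of 11 tested genes of serous cavity macrophages, 0 rose and 4 fell in tumors with versus without LNP-CDN, and the other 7 did not pass. Of all genes tested 6.57% were higher and 5.12% lower in this comparison. Without any 1 library 2 of the 4 calls held, Marco and Alox15. The scavenger receptor Marco was 3.67, 5.92 and 4.72 FPKM with LNP-CDN and 7.73, 9.39 and 8.99 FPKM with the combination, against 22.3, 24.4 and 20.4 FPKM with anti-PD-L1 and 19.5, 23.2 and 28.8 FPKM with PBS. All libraries with LNP-CDN lay below all without it (-1.69 ± 0.11, adjusted p = 4.92e-05). The lipoxygenase Alox15 averaged 1.12 ± 0.373 FPKM with LNP-CDN and 8.01 ± 5.55 FPKM without it (adjusted p = 0.0180, and 0.0600 with no filter). Cd5l, a secreted macrophage protein, averaged 2.42 ± 0.527 and 6.36 ± 3.20 FPKM (adjusted p = 0.0243, and up to 0.0575 without 1 library). The summed FPKM of the 17 serous cavity genes was 61.3 to 63.8 with LNP-CDN, 58.6 to 65.7 with the combination, 83.7 to 109.5 with anti-PD-L1 and 71.7 to 135 with PBS. Their part in the receptor result was not tested. In fluid Marco did not share this direction, with 107, 57.9 and 157 FPKM with LNP-CDN and 57.9, 49.8 and 77.2 FPKM with PBS.

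The profiles closest to Cd163 over the 12 tumor libraries were those of Cd5l (0.184), F13a1 (0.197), Prg4 (0.235) and thrombospondin Thbs1 (0.288), among 10870 genes. Lyve1 itself stood at 0.286 from Cd163. Closest to Lyve1 were Cd5l (0.274), Alox15 (0.400), F13a1 (0.426) and Thbs1 (0.466). Stab1 and Mrc1 stood at 0.156 from each other, and Cd93 was among the closest genes to both. Folr2 was closest to Dhrs13 (0.0617).

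In the lists around the receptors, genes called in tumors with versus without LNP-CDN went in both directions across the lists, to be read against the shares of 6.57% higher and 5.12% lower over all genes. Of 15 Lyve1-associated genes 0 rose and 2 fell, F13a1 (-0.80 ± 0.14, adjusted p = 0.00657) and Vsig4, a complement receptor (-0.48 ± 0.13, adjusted p = 0.0349, and up to 0.0840 without 1 library). Of 11 hyaluronan genes 1 rose, Hmmr, and 1 fell, Vcan at 21.9 ± 2.11 FPKM against 29.2 ± 4.08 FPKM. The Vcan call was lost at the same FPKM total (adjusted p = 0.192). Of 11 heme handling genes 2 rose and 1 fell, Hmox1 at 136 ± 16.8 FPKM with LNP-CDN against 186 ± 34.6 FPKM without it, and 0 of the 3 calls held without any 1 library. Of 12 folate genes 3 rose and 0 fell, led by Shmt1 (0.34 ± 0.06, adjusted p = 0.00717, and 0.115 at the same FPKM total). Of 9 lectins 2 rose and 1 fell, and of 9 stabilin partners 1 rose and 0 fell. Of 18 regulators of Cd163 2 rose and 2 fell, with 0 of these calls held without any 1 library. Of 12 monocyte genes 5 rose and 2 fell, and all 7 held, with F13a1 counted here as well and Ly6c2 in front at 5.84 ± 0.951 FPKM with LNP-CDN and 1.44 ± 0.698 FPKM without it (1.52 ± 0.15, adjusted p = 0.000582). The interferon-stimulated genes rose, 10 of 10. Of 4 lymphatic and 6 other endothelial markers tested 0 were called, of 8 neutrophil markers 2 rose, of 7 fibroblast markers 2 fell and of 6 mesothelial markers 1 rose.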

How the data were processed

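RNA was sequenced from 24 mouse libraries, 12 of pleural fluid and 12 of pleural tumor cells. The deposited table holds 1 FPKM value per gene and library, made by the authors; the library kit, used on poly-A RNA, leaves strand unmarked, according to the labels' protocols. Named in the submitters' processing notes are fastp, STAR, featureCounts, DESeq2 and the build mm9, without roles or versions, yet 53474 of the 54383 gene IDs found in GENCODE M21 have GRCm38 coordinates, which are printed. The relative depth was recovered from the low values, with 99.92 to 99.97% of values whole reads within 0.01, and 9 genes in fluid and 19 in tumor that were not whole were left out of tests.

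Tests used limma 3.58.1 in R 4.3.3 (trend, 1 fit per tissue over 12 libraries) on log2(FPKM + 1), which understates the change of low genes. A gene entered when 3 or more libraries reached an FPKM of 1, and p-values were two-sided with Benjamini-Hochberg adjustment over all genes tested at a threshold of 0.05. The fit was tested on simulated reads with the same dispersion for every gene and group. The spread between real replicates was uneven, so the simulation does not vouch for the calls made here. An exact test of 3 against 3 libraries cannot go below 0.1, so calls rest on the spread shared over groups and genes. Tables and plots were made with pandas 2.3.3 and matplotlib 3.10.9 under Python 3.11.15. The 5 genes and the 19 gene lists were chosen with earlier results of these data known. From each list the text names up to 4 genes with the smallest p and a mean FPKM of at least 1, plus some core genes whatever their result. Each receptor gene's 4 closest profiles were taken from genes with a mean FPKM of at least 1, without predicted symbols, and only part are named. No pair of replicates was near-identical (the lowest chi-square over its degrees of freedom was 4.55). Alternatives were another pseudocount (0.1), no filter, other scalings, limma-voom on recovered reads, a fit of the compared libraries alone, leaving out each library, and a replicate block. The comparison with versus without LNP-CDN, scaling to the same total of reads and levels relative to Csf1r were added after seeing the data. Values of a few genes are not reported here.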

Additional observations from a re-analysis of the deposited data

How the results depend on the processing

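Small differences changed sign under some alternatives, 10 of 630 fluid values and 32 of 730 tumor values of the 5 genes, none of which was called. Their size in the analysis as reported was at most 0.275 in fluid and 0.189 in tumors on the log2 scale. Apart from levels relative to Csf1r, fluid values of the 5 genes moved by less than the spread between replicates. In tumors, Cd163 after LNP-CDN and after the combination kept its direction against PBS in every alternative. It passed the threshold with limma-voom after LNP-CDN (-1.2170) and after the combination (-1.3084), and relative to Csf1r the combination gave -1.5013. Leaving out 1 library gave -1.2237 to -0.7454 after LNP-CDN and -1.3148 to -0.8365 after the combination. The adjusted p then ranged from 0.0438 to 0.183 and from 0.0408 to 0.283 (limma). Cd163 and Lyve1 with versus without LNP-CDN kept their calls in every alternative tested. As that comparison was chosen from these same libraries, the kept calls add no support to it.

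The counts of genes called in tumors depended on the processing. For LNP-CDN versus PBS 442 genes were called, against 98 with no filter, 21 at the same FPKM total, 670 with limma-voom and 106 in the 6 libraries compared. Leaving out 1 library gave 24 (LNP-CDN replicate 3) to 567 (PBS replicate 3). For the combination versus PBS 156 were called, against 52 with no filter, 45 at the same FPKM total, 275 with limma-voom and 25 to 237 without 1 library. With versus without LNP-CDN 1539 were called, against 828 with no filter, 149 at the same FPKM total and 808 to 1597 without 1 library. The cause was not tested. The tumor to fluid difference moved beyond the replicate spread in 19 of 160 values, 14 of them at the same FPKM total and 5 at another pseudocount.

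Replicate numbers recur across treatments, and the labels do not say that they pair mice. Deviations of same-numbered libraries correlated between -0.243 and 0.213 in fluid and between -0.195 and 0.125 in tumors, and 5 and 2 of 12 libraries were closest to their own number. With a replicate block 165, 93 and 1187 genes were called in the 3 tumor comparisons above. Cd163 and Lyve1 with versus without LNP-CDN had adjusted p of 0.0180 and 0.0153 under the block (limma), again in a comparison chosen from these libraries.

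Precision is limited by 3 libraries a group and, for Folr2 in tumors, by 76 reads at the lowest, and read counts cover counting error only.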
